A study of Bos taurus and Sus scrofa with 6 samples.

Results

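Cytochrome c oxidase, complex IV of the mitochondrial respiratory chain, passes electrons from cytochrome c to oxygen and pumps protons. Its catalytic core is encoded by mitochondrial DNA, and nuclear genes encode the small subunits around it. Several of these nuclear subunits exist as isoforms, one made in most tissues and another restricted to some. The genes described here are 10 of these isoforms, in 5 subunits: COX4I1 and COX4I2, COX6A1 and COX6A2, COX6B1 and COX6B2, COX7A1 and COX7A2, and COX8A and COX8C. They were chosen by symbol in the gene tables of the files, and the choice was made knowing that COX8C stood out in pig germ cells and COX4I2 in stroma. The cattle table lists 9 of the 10 symbols among 19994 genes, all but COX8C. The pig table lists 8 of the 10 among 22694 genes, and no value is given for COX6B1 or COX8A in pig.

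The cells came from testes of 3 Holstein cattle aged 4.5 months and of 3 mixed breed pigs aged 3 months, all taken by castration and digested with enzymes. The labels give no treatment, and each animal gave 1 library of single cells. The assay tags every cell with a barcode and every RNA copy it catches with a unique molecular identifier (UMI), so that molecules are counted and not their PCR copies. The cells of 1 type in 1 animal were summed, and values below are the UMIs of a gene scaled to a common total of UMIs for every sum (CPM, the usual unit of scaled counts). Animals are numbered 1 to 3 in each species only as names.

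In textbook terms, COX4I1, COX6A1, COX6B1, COX7A2 and COX8A are the isoforms of most tissues. COX4I2 is known from lung and from cells of the vessel wall and has been linked to the response to low oxygen. COX6A2 and COX7A1 are the isoforms of heart and skeletal muscle, and COX6B2 and COX8C are known from testis. All of these subunits sit outside the catalytic centre, and the exchange of one isoform for another is a known means of tuning the enzyme to a tissue. The testis at these ages holds germ cells and the Sertoli cells that nurse them inside the tubules, peritubular myoid cells and fibroblasts around the tubules, and Leydig cells, which make testosterone, between them.

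The libraries kept between 2236 and 8138 cells, with median depths between 789 and 5878 UMIs a cell, and the first library of each species was the shallowest. The 3 libraries of a species shared between 8 and 61 cell barcodes in each pair. Cells were clustered without the 10 isoforms or other genes of complex IV, and clusters were named by marker genes. So "germ-like" means a cluster in which the germ cell markers had most support, not that they are its leading genes. Among sums of at least 20 cells, the germ cell list reached between 1127 and 1450 CPM in pig germ-like cells and between 14.7 and 136 CPM in the other named pig types. Markers of Leydig cells, whose RNA is abundant, lay between 5051 and 10903 CPM in the other cell types of cattle 1, against 518 to 1850 CPM in cattle 2 and 3. In pig 1 they lay between 849 and 6878 CPM in the other named types, against 90.7 to 457 CPM in pig 2 and 3. The cattle files also hold empty droplets, in which COX4I2, for instance, stood at 44.3, 79.8 and 39.7 CPM in cattle 1, 2 and 3. COX6B2 stood in them at 23.6, 17.7 and 20.5 CPM. The pig files hold no barcode under 500 UMIs, so no such level can be given for pig. How far RNA from other cells sets the low values below was not tested.

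The promoters of 4 isoforms are shown because they set COX8C and COX4I2, the 2 isoforms known beforehand to stand out, beside their widely made partners. They are RefSeq sequences on Sscrofa11.1, from 250 bases before the start of the gene to 50 after it, 5′ to 3′ along the gene. Capitals mark the GC box GGGCGG, at which factors of the SP family bind, and the core CCGGAAG of sites of ETS factors, each on either strand. COX8C starts on the forward strand of chromosome 7 and its window is chr7:114727591-114727890. COX8A lies on the reverse strand of chromosome 2, with the window chr2:8103264-8103563. COX4I2 lies on the forward strand of chromosome 17, with the window chr17:35340249-35340548, and COX4I1 on the reverse strand of chromosome 6, with the window chr6:3137570-3137869.
COX8C: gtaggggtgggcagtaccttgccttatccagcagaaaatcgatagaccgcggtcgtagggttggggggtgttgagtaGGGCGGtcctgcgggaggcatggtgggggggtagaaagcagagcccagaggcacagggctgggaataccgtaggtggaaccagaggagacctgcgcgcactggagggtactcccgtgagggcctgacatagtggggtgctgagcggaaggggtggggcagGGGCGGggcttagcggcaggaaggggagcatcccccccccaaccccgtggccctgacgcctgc
COX8A: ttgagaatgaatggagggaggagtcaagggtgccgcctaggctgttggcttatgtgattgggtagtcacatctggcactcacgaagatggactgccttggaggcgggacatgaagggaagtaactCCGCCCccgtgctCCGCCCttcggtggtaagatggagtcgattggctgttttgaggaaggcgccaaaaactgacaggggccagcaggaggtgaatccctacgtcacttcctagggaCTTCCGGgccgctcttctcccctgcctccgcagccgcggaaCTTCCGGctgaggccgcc
COX4I2: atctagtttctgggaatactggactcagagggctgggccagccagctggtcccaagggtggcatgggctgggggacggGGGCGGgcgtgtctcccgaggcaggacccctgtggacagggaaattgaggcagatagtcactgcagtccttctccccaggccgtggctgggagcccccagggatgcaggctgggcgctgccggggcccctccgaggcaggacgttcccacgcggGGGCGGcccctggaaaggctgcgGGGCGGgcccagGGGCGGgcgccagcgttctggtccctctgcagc
COX4I1: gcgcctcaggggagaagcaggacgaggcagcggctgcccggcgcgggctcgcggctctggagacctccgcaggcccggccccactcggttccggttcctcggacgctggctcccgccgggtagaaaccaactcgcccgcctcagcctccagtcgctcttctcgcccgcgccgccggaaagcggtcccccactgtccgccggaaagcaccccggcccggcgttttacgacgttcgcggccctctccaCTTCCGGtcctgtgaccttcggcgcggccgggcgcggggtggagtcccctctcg

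Of the 10 isoforms, 9 had a pig promoter in these tables, several of them matched by the name of the product, and COX6B1 had none. The ETS core was present in the windows of COX4I1, COX6A1, COX7A2 and COX8A, the 4 isoforms of most tissues that had one. It was in none of the windows of COX4I2, COX6A2, COX6B2, COX7A1 and COX8C. Across all 19556 pig promoters of this length 10.999% held it. The GC box was found in 50.6% of all promoters, 4 times in that of COX4I2 and 2 times in that of COX8C, and it overlaps the ETS core at 1 place in that of COX7A2. Among the other 6 motifs searched, on both strands, TGGGAA (the core bound by RBPJ) was in the windows of COX4I2 and COX8C and in 27.8% of all. ACGTG, the core of the hypoxia response element, was in neither and in 22.3% of all. CCAAT was in 35.4% of all promoters and TATAAA, the letters of the TATA box, in 10.9%. AACTG, the core of MYB sites, was in 37.5% and GCATGC, the core of NRF1 sites, in 6.61%. A match gives letters only and is no bound site, and no match says nothing about the factor.

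COX8C, the testis isoform of the smallest subunit, was concentrated in the germ-like cells of pig. In germ-like cells it stood at 1233, 1105 and 1353 CPM in pig 1, 2 and 3, a mean of 1231 ± 124 (SD, n = 3). In Sertoli-like cells it was at 38.7, 10.5 and 44.9 CPM, and in Leydig-like cells at 51.8, 3.75 and 162 CPM. In myoid-like cells it was at 81.5, 14.6 and 39.2 CPM, in macrophage-like cells at 131, 12.1 and 37.3 CPM, and the endothelial-like, lymphocyte-like, plasmacytoid-like and B cell-like sums held 0 to 74.9 CPM. Every germ-like sum thus lay above every sum of the other named types, and the groups did not overlap. This pattern chose the gene, so it is described here and was not tested. In the same contrast 55% of the 10323 genes tested passed at an adjusted p of 0.05, 29.8% as higher and 25.2% as lower. The highest value outside germ-like cells, in the Leydig-like cells of pig 3, came from a sum in which the germ cell list stood at 136 CPM. In the germ-like cells of the same library the list stood at 1127 CPM.

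**Figure D1:**
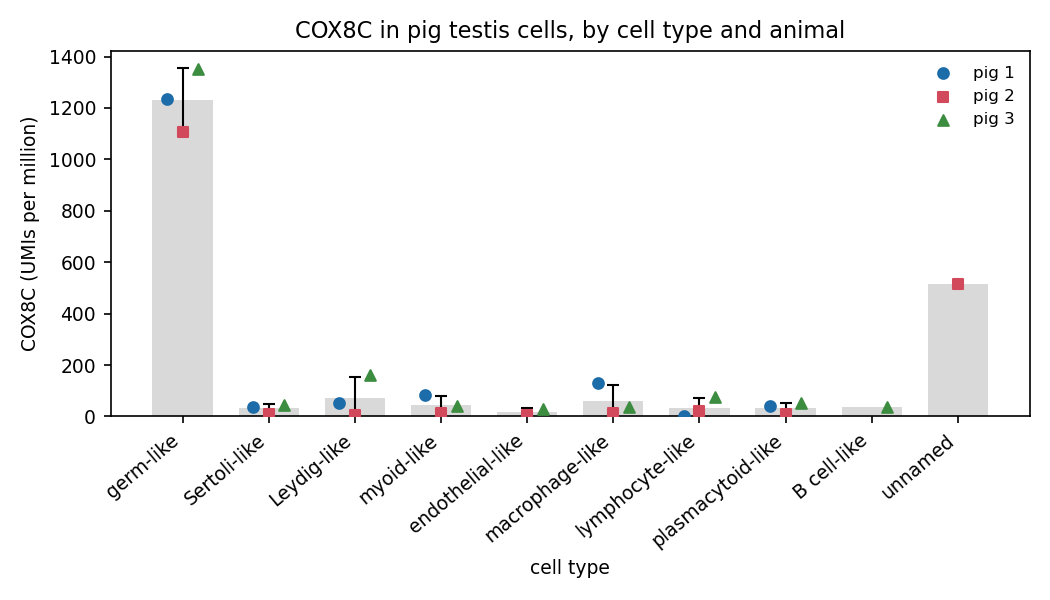
COX8C in CPM (linear vertical axis, from 0) in each pig cell type (horizontal axis), 1 symbol per animal, with the mean (grey bar) and its SD (line), for sums of at least 20 cells. Germ-like cells lie between 1105 and 1353, the unnamed cluster of pig 2 at 517, and the other types at 162 or below.

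The same held cell by cell. A COX8C UMI was found in 91.6%, 97.7% and 99.4% of germ-like cells of pig 1, 2 and 3, at median depths of 2811, 15027 and 14807 UMIs. In Sertoli-like cells, at median depths of 853, 3928 and 4931 UMIs, the shares were 3.26%, 4.44% and 17.1%. When each cell was thinned to 1000 UMIs, leaving out shallower cells, germ-like cells had shares of 70.6%, 62.1% and 74.1%, from 592, 219 and 702 cells. Thinned Sertoli-like cells had 4.32%, 0.791% and 2.84%, from 301, 2275 and 211 cells. The gap between the types was therefore present at equal depth in each animal.

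Pig germ-like cells fell into 5 clusters, in which the isoforms did not move together. COX8C was at 906, 877 and 779 CPM in the 3 animals in the cluster led by KRT14 and PIWIL4, a gene of piRNA silencing in early germ cells. In 2 clusters led by UCHL1, a spermatogonial marker, it was at 1256 CPM in pig 1 and at 1138 and 1173 CPM in pig 2 and 3. In the cluster led by PLD6 and CCDC42 it was at 1450 and 1561 CPM in pig 1 and 3. In the cluster led by TEX101 and SYCP1, a component of the meiotic synaptonemal complex, COX8C was at 1117 CPM in 39 cells of pig 1 and 1197 CPM in 55 cells of pig 3. It was thus high in all of them, and lowest in the KRT14 cluster within each animal. COX6B2, the testis isoform of subunit 6B, was at 795 and 1142 CPM in the TEX101 cluster and between 3.17 and 150 CPM in the other 4. COX7A2 was at 3502 and 3320 CPM in the TEX101 cluster, 547 to 644 CPM in the KRT14 cluster and 1057 to 1361 CPM in the others. The TEX101 cluster thus combined the highest COX6B2 and COX7A2 with a COX8C level inside the range of the others. A cluster is made from the cells' own genes, so these values are a description.

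**Figure D2:**
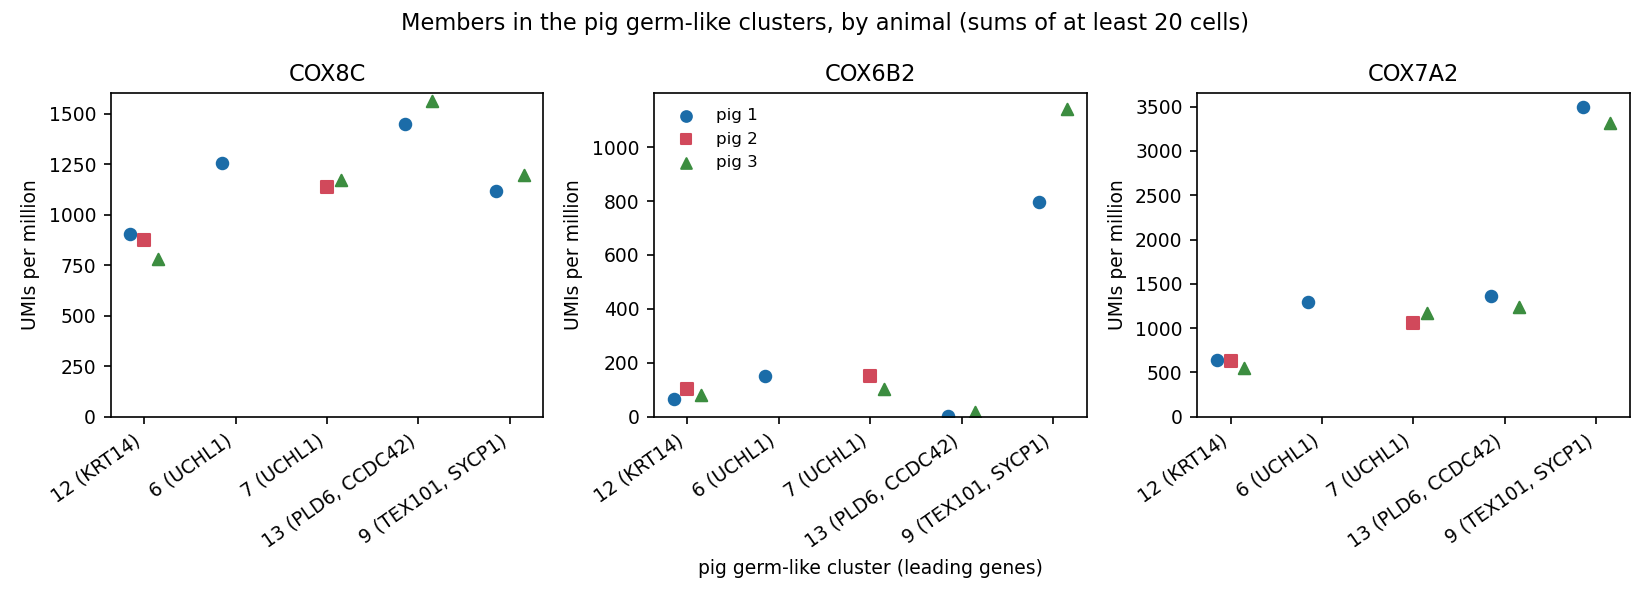
COX8C, COX6B2 and COX7A2 in CPM (linear vertical axes) in the 5 pig germ-like clusters (horizontal axis, with leading genes), 1 symbol per animal with at least 20 cells in the cluster. COX6B2 and COX7A2 peak in the TEX101 cluster, at up to 1142 and 3502, while COX8C lies between 779 and 1561 in all 5.

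One pig cluster of 314 cells stayed unnamed, with 303 of them from pig 2. Myoid markers had most support in it, with 7 markers. The naming rule gave no name because its leading genes included the germ cell markers UCHL1 and ELAVL2. It is therefore outside the ranges of the named types above. COX8C was also a leading gene of this cluster. COX8C stood in it at 517 CPM in pig 2, with an exact 95% Poisson interval of 475 to 562 that covers counting error only. UCHL1 stood at 398 CPM and the Sertoli cell gene CLU at 12617 CPM in the cluster. The germ cell list summed to 671 CPM there, against 1450 CPM in germ-like cells of pig 2, and the Sertoli cell list to 2398 CPM, against 4270 CPM in its Sertoli-like cells. Whether these barcodes hold more than 1 cell was not tested.

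Pig germ-like cells also had COX6B2 at 146, 138 and 102 CPM, against 0 to 31.9 CPM in every other sum of at least 20 cells. COX7A2 stood in them at 1330, 1009 and 1270 CPM, above the highest other sum, 833 CPM in the lymphocyte-like cells of pig 1. COX7A1, its muscle partner, was low at 130, 25.7 and 40.5 CPM. COX4I1 at 1648, 1514 and 1489 CPM and COX6A1 at 797, 666 and 553 CPM lay nearer to the other types. No member was tested in this contrast, in which 29.8% of all genes tested were called higher and 25.2% lower. How many other genes lay above every other sum in germ-like cells was not tested.

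In cattle the germ-like cells did not serve to choose the members, and they were tested with edgeR's quasi-likelihood test on sums per animal and cell type, as germ-like against the unweighted mean of the other 7 types. That mean holds the myoid-like cells, on which COX4I2 was chosen, so COX4I2 is described by its levels in this and the later contrasts and its fitted values are not read as a test. Likewise COX8C in pig has the germ-like cells in its reference. Of the other 7 members fitted, 2 were called higher and 3 lower at a Benjamini-Hochberg adjusted p of 0.05. Of all 8935 genes tested, 35.2% were called higher and 24.6% lower. Without COX4I2, the log2 fold changes of these 7 members ran from -2.98 for COX7A1 to 2.61 for COX6B2. COX4I1 was in the middle at 0.00, and all genes had a median of 0.23. COX6A2, the 9th member listed, had 7 UMIs in all cattle cells and was not tested.

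COX6B1, the common isoform of subunit 6B, stood at 1275, 1294 and 1121 CPM in cattle germ-like cells and at no more than 420.5 CPM in any other sum. Its log2 fold change was 1.11 (SE 0.17, edgeR adjusted p = 4.1e-06). COX6B2 stood at 34.1, 39.2 and 71.3 CPM there and at 19.7, 26.5 and 22.1 CPM in Sertoli-like cells. It was at 14.5 to 58.9 CPM in the small endothelial-like sums and at 0 in all 3 plasmacytoid-like sums. Because of those 0 counts its fitted log2 fold change of 2.61 depends on the prior count of the fit. Without the plasmacytoid-like sums it was 1.37 (SE 0.28, edgeR adjusted p = 2.2e-04). In cattle germ-like cells both isoforms of this subunit rose, and COX6B2 made up 3.84% ± 1.86 of their summed UMIs (SD, n = 3). Its mean share was higher in Sertoli-like, Leydig-like and endothelial-like cells, at 7.67%, 5.63% and 8.37%. In the remaining types it was 3.33% or below. Capture differs between genes in this assay, so such shares are compared between cell types and are not a ratio of transcripts.

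COX8A, the common isoform of subunit 8, was lowest in cattle germ-like cells, at 68.2, 53.8 and 50.1 CPM, against 77.8 CPM or more in every other sum. It fell there by 2.03 on the log2 scale (SE 0.31, edgeR adjusted p = 5.0e-06). COX8C is not listed in the cattle table, and COX8A has no row under that symbol in pig, so the share of the 2 isoforms could not be formed in either species. COX7A1 stood at 34.1, 46.8 and 40.5 CPM and fell by 2.98 (SE 0.33, edgeR adjusted p = 3.2e-08). COX4I2 stood at 6.82, 3.07 and 1.88 CPM. COX6A1 fell by 1.04 (SE 0.24, edgeR adjusted p = 6.9e-04). In CPM its 685, 606 and 574 were not the lowest, as lymphocyte-like cells held 526, 489 and 379.

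The levels of the other members of cattle germ-like cells depend on the scaling. COX4I1 had its highest level there in each animal, at 2401, 1934 and 1698 CPM, and COX7A2 likewise at 754, 935 and 842 CPM. With TMM scaling, whose factors were largest for the germ-like sums in cattle 2 and 3, the log2 fold changes were 0.00 for COX4I1 and 0.26 for COX7A2 (edgeR adjusted p = 1 and 0.32). With library size alone they were 0.79 and 1.07 and both were called, and that of COX6A1 was -0.24 and no longer called (edgeR adjusted p = 0.28). That scaling moved the median of all genes in this contrast from 0.23 to 1.05, and its calls from 3144 higher and 2198 lower to 5000 and 1174. COX6A1 was not called without cattle 2 either (log2 fold change -0.93, edgeR adjusted p = 0.060).

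Among the named types with sums of at least 20 cells, COX4I2 was highest in the myoid-like cells of both species. That name takes in clusters with smooth muscle genes and clusters with fibroblast and stromal genes such as TCF21, between which COX4I2 differed (below). It does not place the gene in the peritubular cells alone. In cattle its levels there were 233, 149 and 102 CPM in cattle 1, 2 and 3, a mean of 161 ± 66.5 (SD, n = 3). The next type was macrophage-like, at 67.3, 52.8 and 15.6 CPM, and germ-like, Sertoli-like and Leydig-like sums held 1.88 to 11.4 CPM. In pig the myoid-like levels were 224, 161 and 306 CPM, a mean of 230 ± 72.8 (SD, n = 3). Every other pig sum of at least 20 cells was at 69.3 CPM or below. In both species each myoid-like sum lay above all sums of the other types, and the gene was chosen for this, so no test is given. Of all genes tested, 27.3% in cattle and 15.5% in pig passed in this contrast, in either direction.

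**Figure D3:**
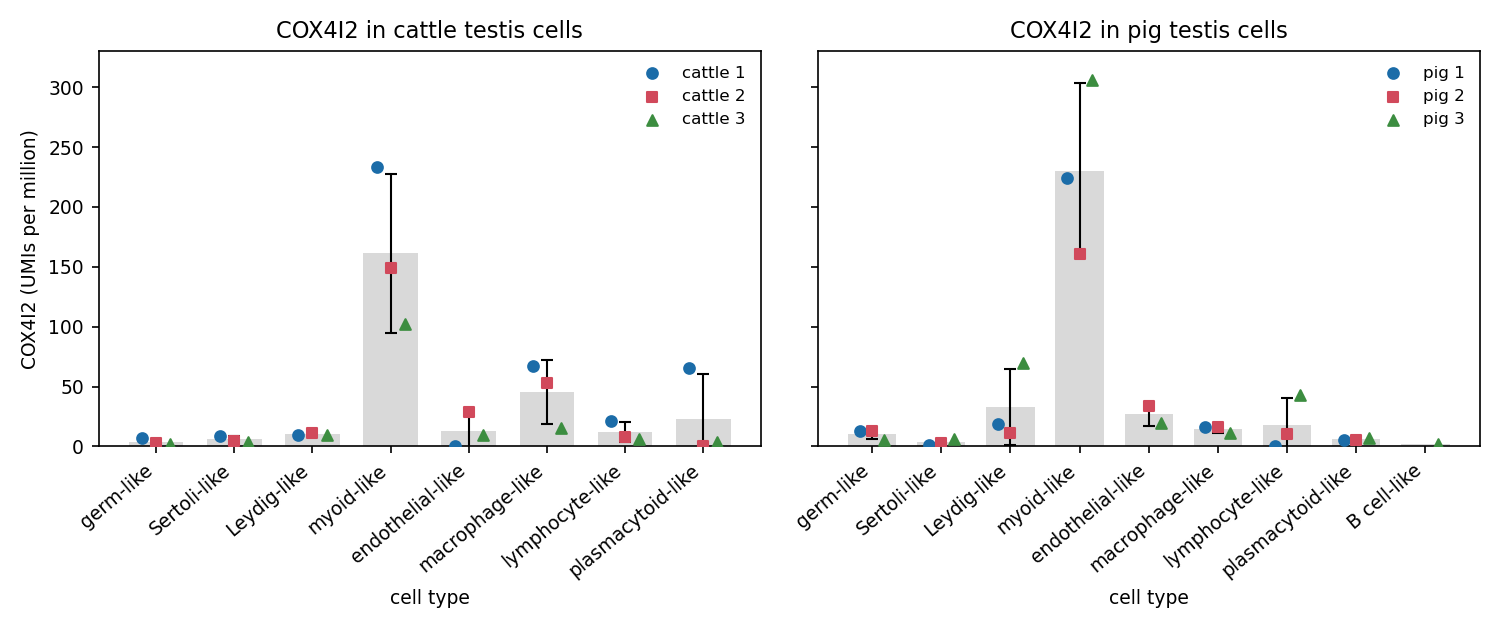
COX4I2 in CPM (linear vertical axis, from 0) by cell type in cattle (left) and pig (right), 1 symbol per animal, with the mean (grey bar) and its SD (line), for sums of at least 20 cells. Myoid-like cells lie between 102 and 233 in cattle and between 161 and 306 in pig, above every other cell type.

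COX4I1, the common isoform, stood in the same cells at 1323, 1246 and 1087 CPM in cattle and 1213, 1340 and 1184 CPM in pig. COX4I2 made up 14.98%, 10.7% and 8.58% of the UMIs of both isoforms in cattle myoid-like cells, a mean of 11.4% ± 3.26 (SD, n = 3). In pig the shares were 15.6%, 10.7% and 20.5%, a mean of 15.6% ± 4.92 (SD, n = 3). The 2 species overlapped. When markers were set against all other cells to name clusters, the cattle mean was 4.80%. The cattle cluster led by RBP4 and EDNRA, with the highest COX4I2 of the cattle clusters, then stayed unnamed. So did a myoid-like cluster of 1277 cells, 99.9% of them from 1 library, and one of 222 cells led by UBE2C. The part of each in the lower mean was not tested. Cell by cell, thinned to 1000 UMIs, a COX4I2 UMI was found in 10.3%, 13.5% and 9.66% of cattle and 16.0%, 18.2% and 27.2% of pig myoid-like cells. In cattle Sertoli-like cells the thinned shares were 0.971%, 0.172% and 0.151%.

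Myoid-like cells were themselves mixed, and COX4I2 differed between their clusters within a library. In cattle 2 it was at 75.1 CPM in a cluster with ACTA2, smooth muscle actin, at 5011 CPM and TCF21, a factor of stromal progenitors, at 448 CPM. In another cluster of the same library, with ACTA2 at 293 CPM and TCF21 at 1282 CPM, COX4I2 was at 369 CPM. In cattle 3 COX4I2 was at 47.4 CPM where ACTA2 was at 8828 CPM, and at 154 CPM where ACTA2 was at 255 CPM and TCF21 at 1306 CPM. Another cluster of cattle 3, with ACTA2 at 4585 CPM and TCF21 at 835 CPM, had COX4I2 at 157 CPM. In pig 2 COX4I2 was at 104 CPM where ACTA2 was at 4833 CPM and at 288 CPM where ACTA2 was at 1844 CPM. In each of these 3 libraries the cluster with the highest ACTA2 had the lowest COX4I2. Cattle 1 did not follow this order, with COX4I2 at 235 CPM where ACTA2 was at 5241 CPM and at 166 CPM in 43 cells with ACTA2 at 1715 CPM.

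The highest COX4I2 of all clusters was in a pig cluster of 25 cells led by RGS5, a marker of pericytes, the mural cells of small vessels. It was too small for the sums above. In it COX4I2 reached 813 CPM in 17 cells of pig 2 (exact 95% Poisson interval 605 to 1069) and 1105 CPM in 8 cells of pig 3 (786 to 1511), intervals that cover counting error only. RGS5 stood at 6691 CPM there. NDUFA4L2, a paralogue of the complex IV subunit NDUFA4 that is known from pericytes, stood at 561 CPM, and HIGD1B, another mitochondrial gene known from pericytes, at 551 CPM. In pig myoid-like cells NDUFA4L2 was at 2.68 CPM or below and HIGD1B at 2.54 CPM or below. Cattle myoid-like cells had HIGD1B at 83.0, 174 and 40.4 CPM and almost no NDUFA4L2, at 0.0741 CPM at most. The mural marker list summed to 16.5 to 28.3 CPM in cattle and 81.5 to 126 CPM in pig myoid-like cells. Its part in their COX4I2 was not tested.

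Over the 24 sums of cattle, the genes whose log2(CPM + 1) was most like that of COX4I2 were IGFBP6 (Pearson's r = 0.886), COL16A1 (0.870), FHL2 (0.867), NTRK2 (0.863) and ACTG2 (0.852), among 14202 genes. Over the 24 sums of pig they included IGFBP6 (0.909), SELENOM (0.853), EBF1 (0.849) and BOC (0.845), among 15193 genes. IGFBP6, which encodes a binding protein of insulin-like growth factors, came first in both. For COX8C in pig, 2 of the 5 most alike genes carry a symbol, PLD6 (0.913) and C19orf70 (0.913), and the other 3 have none. PLD6 encodes a mitochondrial nuclease of the piRNA pathway. The sums share libraries and cells of few types, so these values order genes and nothing more.

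COX7A1, known from muscle, and its common partner COX7A2 shared out differently in the cell types of both species. In cattle, COX7A1 made up 49.4%, 47.5% and 48.8% of the UMIs of both in Leydig-like cells, a mean of 48.6% ± 0.955 (SD, n = 3). In macrophage-like cells it was 48.6% ± 4.85 and in myoid-like cells 39.6% ± 4.01 (SD, n = 3 each). In Sertoli-like cells the share was 16.1% ± 3.41, and in germ-like cells it was 4.33%, 4.77% and 4.59%, a mean of 4.56% ± 0.223. The germ-like, Sertoli-like and Leydig-like shares of cattle thus did not overlap. In pig the Leydig-like shares were 54.8%, 34.0% and 32.0%, the Sertoli-like ones 31.2%, 20.6% and 15.1% and the germ-like ones 8.92%, 2.49% and 3.09%. The germ-like, Sertoli-like and Leydig-like shares of pig did not overlap either, and pig 1 had the highest share in each of these types. Pig myoid-like shares, 12.8% to 34.3%, overlapped with the Sertoli-like and the Leydig-like ones. Macrophage-like shares, 3.96% to 22.2%, lymphocyte-like shares, 2.61% to 7.14%, and plasmacytoid-like shares, 3.51% to 10.9%, overlapped with the germ-like ones. The B cell-like share, 1.61%, lay below them. How often shares of other gene pairs separate these types was not tested. Pig 1 was the shallowest pig library and had more Leydig cell RNA outside its Leydig-like cells. The part of either in these shares was not tested.

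**Figure D4:**
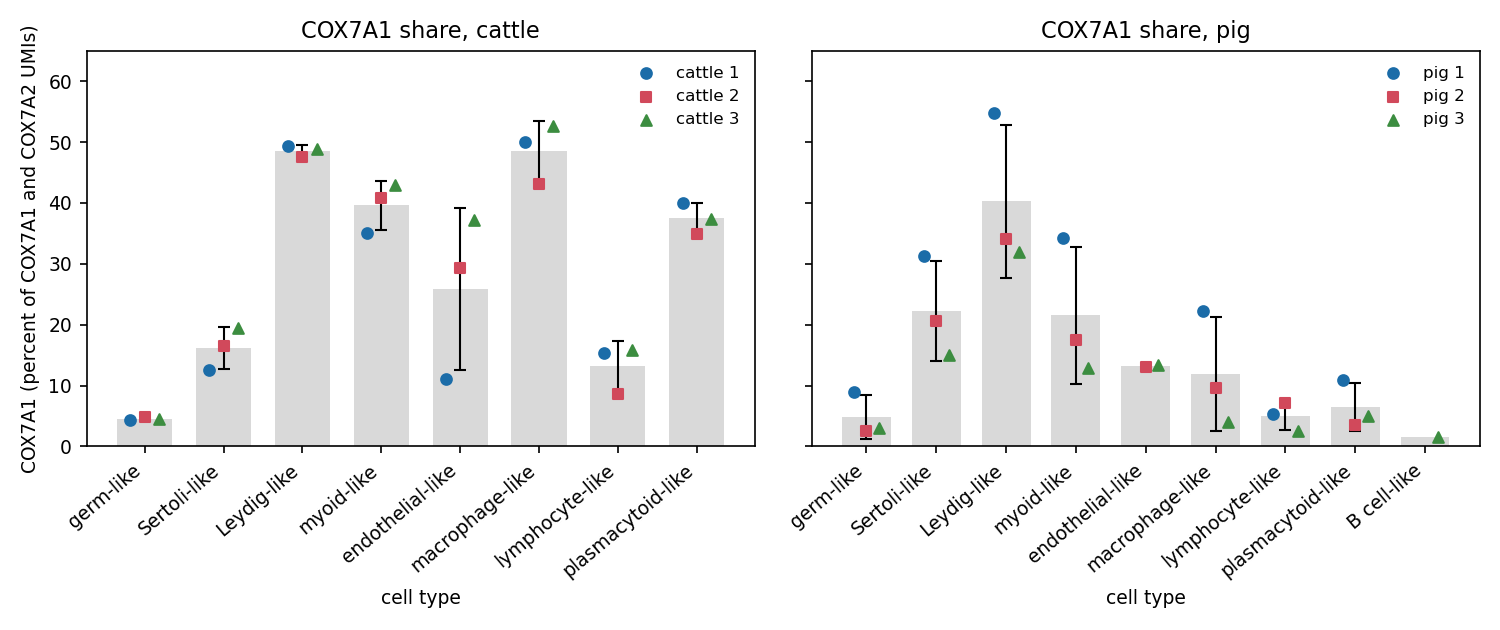
COX7A1 as percent of the UMIs of COX7A1 and COX7A2 (linear vertical axis, from 0) by cell type in cattle (left) and pig (right), 1 symbol per animal, with the mean (grey bar) and its SD (line), for sums of at least 20 cells. Leydig-like cells lie at 47.5 to 49.4 in cattle and 32.0 to 54.8 in pig, and germ-like cells at 4.33 to 4.77 and 2.49 to 8.92.

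Leydig-like cells of both species had more COX7A1 and COX6A1. In cattle COX7A1 stood at 400, 521 and 382 CPM in them and rose by 2.09 on the log2 scale against the mean of the other types (SE 0.22, edgeR adjusted p = 2.8e-08). In pig it stood at 675, 303.5 and 385 CPM and rose by 2.73 (SE 0.39, edgeR adjusted p = 1.0e-05). COX6A1, the common isoform of subunit 6A, stood at 2053, 1621 and 1160 CPM in cattle and rose by 1.77 (SE 0.19, edgeR adjusted p = 6.5e-08). In pig COX6A1 stood at 1870, 1154 and 1257 CPM and rose by 1.56 (SE 0.26, edgeR adjusted p = 7.5e-05). Within each animal both genes were higher in Leydig-like cells than in every other type.

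With COX4I2 and, in pig, COX8C set aside, 4 of 7 members were called higher and none lower in cattle Leydig-like cells, and 2 of 6 higher and none lower in pig. Of all genes tested in cattle, 19.5% passed as higher and 9.04% as lower, and of those tested in pig 13.9% and 7.4%. The cattle split of 1743 genes higher and 808 lower turned to 1045 and 1869 with library size alone, where the median of all genes moved from 0.11 to -0.29, and COX6A1 and COX7A1 were called higher under that scaling too. The other calls in cattle were COX8A and COX6B2. COX8A had a log2 fold change of 0.81 (SE 0.25, edgeR adjusted p = 0.015), a call lost without cattle 2 or cattle 3 (edgeR adjusted p = 0.19 and 0.17). It stood at 107 to 191 CPM in Leydig-like cells, with a mean of 148 CPM, where all cattle cells had a mean of 162 CPM. The cattle empty droplets held it at 155 to 321 CPM. For COX6B2 the value of 1.25 is that without the plasmacytoid-like sums (SE 0.30, edgeR adjusted p = 0.0032). Against the sum of all other cells, in place of the mean of the types, COX6B2 was not called (0.77, edgeR adjusted p = 0.082). Its Leydig-like levels, 18.6 to 23.1 CPM, lay within those of the cattle empty droplets, 17.7 to 23.6 CPM. The part of such RNA in the levels of COX8A and COX6B2 was not tested. COX7A2 was called with the animal as a block (0.47, edgeR adjusted p = 0.0092) and not without it (0.46, edgeR adjusted p = 0.12).

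Sertoli-like cells had the highest COX8A of all cell types in each of the 3 cattle. It stood at 371.5, 201 and 213 CPM, and rose by 1.42 (SE 0.23, edgeR adjusted p = 2.1e-05), a call that held under all 13 alternatives. COX6B2 rose by 1.15 without the plasmacytoid-like sums (SE 0.28, edgeR adjusted p = 0.0021) and had an adjusted p of 0.051 against the sum of all other cells. Its Sertoli-like levels, 19.7 to 26.5 CPM, were near those of the cattle empty droplets, 17.7 to 23.6 CPM. The part of such RNA was not tested. COX6A1 rose by 0.58 (SE 0.21, edgeR adjusted p = 0.031), a call made in 7 of the 13 alternatives and lost without cattle 2 or cattle 3 (edgeR adjusted p = 0.29 and 0.17). In all, 3 of 7 members were called higher and none lower, where 24% and 15.1% of all genes were. That split of 2143 and 1345 genes was 1738 and 1975 with DESeq2. With the animal as a block 6 of the 7 were called, with COX6B1 at -0.42, COX7A1 at -0.46 and COX7A2 at 0.46 added (edgeR adjusted p = 0.014, 0.017 and 0.0064). In that fit 2832 of all 8935 genes tested were called higher and 1936 lower.

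**Figure D5:**
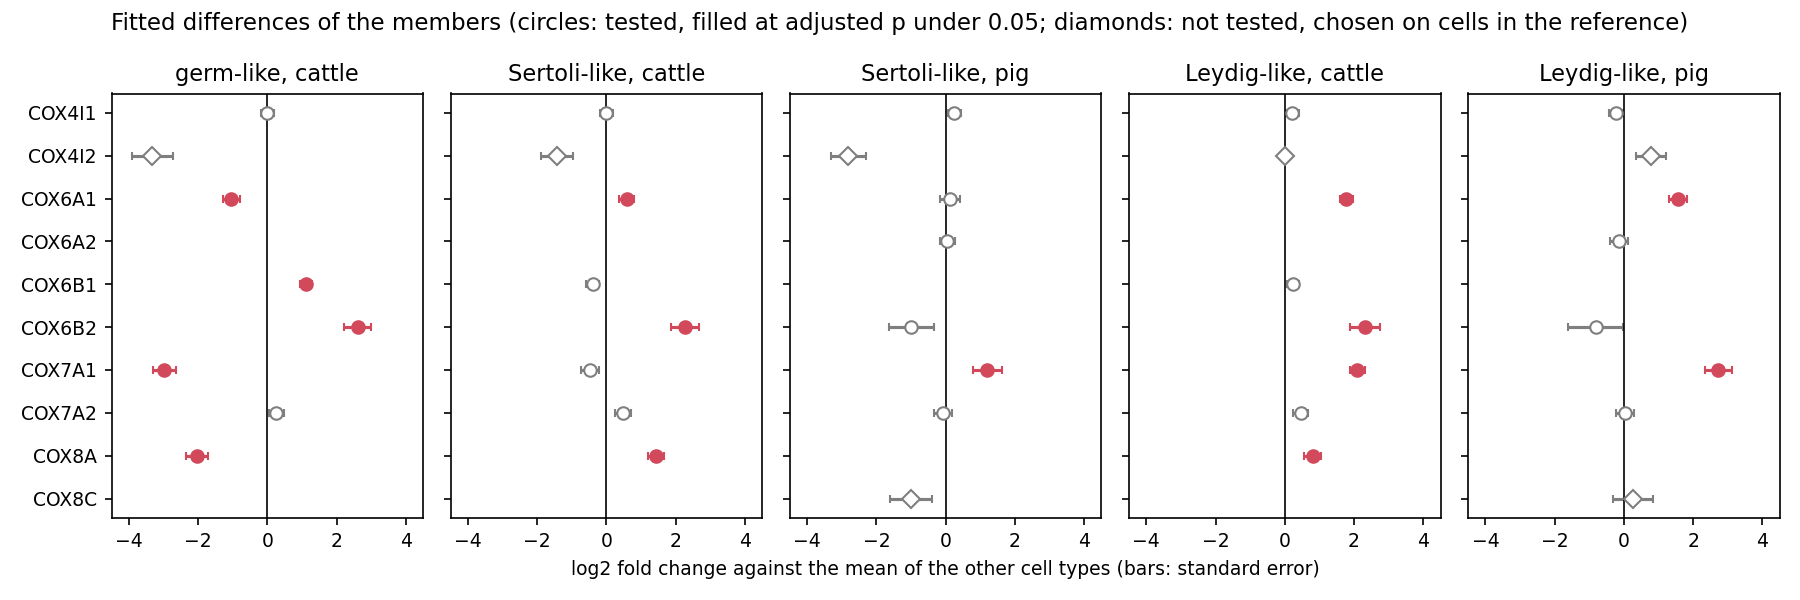
Fitted log2 fold changes of the members against the mean of the other cell types (horizontal axis, bars 1 standard error) in the 5 contrasts tested, with circles filled where the adjusted p was under 0.05. The values of COX6B2 in cattle are those with the plasmacytoid-like sums. Diamonds mark COX4I2 and pig COX8C, which were chosen on cells in the reference and are not read as tests. COX7A1 and COX6A1 lie to the right in Leydig-like cells of both species, at 1.56 to 2.73, and COX7A1 to the left in cattle germ-like cells, at -2.98.

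In pig Sertoli-like cells COX4I2 was at 0.921, 3.17 and 6.29 CPM. COX7A1 stood at 261, 117 and 109 CPM and rose by 1.21 (SE 0.43, edgeR adjusted p = 0.033), a call made in 5 of the 13 alternatives and lost without pig 2 or pig 3 (edgeR adjusted p = 0.14 and 0.32). Of the 6 members left without COX4I2 and COX8C, 1 was called higher and none lower, where 19.4% and 10.7% of all genes were. COX6A2 was detected in all pig cell types, at 31.2 to 104.5 CPM in every sum of at least 20 cells, germ-like cells included at 64.1, 47.7 and 65.04 CPM. RefSeq gives this gene 26486 bases and 3 transcripts in pig, where COX8C, for instance, has 1262 bases, and which transcripts were counted is not given in the sources used here.

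The contrasts of the 2 species were compared as cattle effect minus pig effect, over symbols in both tables. In Sertoli-like cells the difference for COX7A1 was -1.66 (SE 0.53, edgeR adjusted p = 0.030), as its effect was -0.47 in cattle and 1.21 in pig. The difference was called in 5 of 12 alternatives, and the Sertoli-like levels of the 2 species overlapped. For COX6B2 the difference was 2.47 without the plasmacytoid-like sums (SE 0.73, edgeR adjusted p = 0.016), with levels of 19.7, 26.5 and 22.1 CPM in cattle and 3.68, 3.37 and 24.3 CPM in pig, so that pig 3 overlapped with cattle. The cattle levels were near those of the empty droplets, for which pig has no value. Among all genes 12.3% differed between the species in this contrast, 1217 in all, and 1997 with the animal as a block. In Leydig-like cells COX6B2 differed by 3.16 (SE 1.003, edgeR adjusted p = 0.048), but without the plasmacytoid-like sums it was not called (2.08, edgeR adjusted p = 0.14), and without the third animals it was 1.32. Of all genes 6.14% were called, 605 in all, and 1095 with the animal as a block. The rise of COX6A1 and COX7A1 in Leydig-like cells differed between the species by 0.26 (SE 0.37) and -0.61 (SE 0.52), and neither difference was called (edgeR adjusted p = 0.93 and 0.67).

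The wider genes of complex IV, 46 symbols for its other subunits, its assembly factors and cytochrome c, were read from a list in the same fits. In cattle Leydig-like cells 14 of 32 rows tested were called higher and none lower, beside 19.5% and 9.04% of all genes. They included COX14, an assembly factor, at 1.48 on the log2 scale, and the subunits COX7C at 1.63, COX6C at 1.27 and NDUFA4 at 1.18. COX7C has several rows in the cattle table, which may share reads. COX1, the mitochondrial catalytic subunit, rose by 1.98. Mitochondrial genes took 2.08%, 6.07% and 7.96% of UMIs in these cells, against 0.60%, 1.83% and 2.27% in myoid-like cells, and their part in these calls was not tested. In pig Leydig-like cells 4 of 24 rows were called higher, SURF1 at 1.86, COX2 at 0.95, COX3 at 0.85 and COX5B at 0.83, and 1 lower, COX7A2L at -0.94. Of all genes 13.9% were called higher there and 7.4% lower. SURF1 is an assembly factor and COX7A2L a factor of supercomplex assembly.

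In cattle Sertoli-like cells 15 of 32 rows were called higher and 2 lower, beside 24% and 15.1% of all genes. Among those higher were 11 of the 18 rows of assembly factors. LRPPRC, which stabilises mitochondrial messenger RNA, rose by 1.82, COX3 and COX1 by 1.63 each and COX5B by 1.06. Mitochondrial genes took 2.98%, 6.69% and 9.51% of their UMIs. In pig Sertoli-like cells 1 of 24 rows was called higher, COX18 at 0.96, and 3 lower, COX17 and CYCS at -1.17 each and CMC2 at -0.99. Of all genes 19.4% were called higher there and 10.7% lower. The median log2 fold change of these lists was 0.63 in cattle and -0.03 in pig, where that of all genes was 0.11 and 0.09.

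In cattle germ-like cells 8 of 32 rows were called higher and 9 lower, beside 35.2% and 24.6% of all genes. CYCT, the testis form of cytochrome c, stood at 150, 182 and 173 CPM there and at 7.25 CPM or below elsewhere (edgeR adjusted p = 1.3e-13). COX10, which makes the haem of the enzyme, stood at 40.9, 47.6 and 54.1 CPM there and at 9.82 CPM or below elsewhere, with none in the plasmacytoid-like sums (edgeR adjusted p = 1.3e-08). COX14, COX20, COA5 and COA3, further assembly factors, fell by 2.32, 2.81, 2.13 and 1.98. In pig germ-like cells 8 of 24 rows were called higher and 2 lower, beside 29.8% and 25.2% of all genes. COX7B2, a testis isoform of subunit 7B, stood there at 17.6, 25.4 and 16.6 CPM. In the other named types it was at 5.13 CPM or below (edgeR adjusted p = 2.8e-09). At such levels the other fitted sums alone hold fewer than the 200 UMIs needed for testing. COX7B2 was thus tested only because of its germ-like UMIs, and its p-value is not read as separate support for the difference. CMC2 rose by 1.51, COX16 by 1.10 and CYCS by 1.10, and COX7A2L fell by 0.83.

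In myoid-like cells few of these genes were called. In cattle 3 of 32 rows were called higher and 2 lower, beside 18.3% and 9.04% of all genes. HIGD1B rose by 3.67 (edgeR adjusted p = 3.8e-06), and COX5A and LRPPRC fell by 0.94 and 1.19. In pig 1 of 24 rows was called, COX18 at 1.02, where 13.3% of all genes were called higher and 2.24% lower.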

How the data were processed

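Single-cell RNA was measured in testes of 3 cattle and 3 pigs, 1 library per animal. The library of mouse cells is left out. Per the labels, the authors ran Cell Ranger 2.1.0 against the cattle build ARS-UCD1.2 and the pig build Sscrofa11.1, and deposited raw UMI counts per gene and barcode with no normalization. How reads that match several genes were counted is not given in the sources used here, and reads shared by near-identical copies cannot be placed.

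Cells were barcodes above the 99th percentile of the top 3000 totals divided by 10, with at least 200 genes. The cells with the highest Scrublet scores (scanpy 1.11.5), 0.8% for every 1000 cells, were left out as doublets. Each species was clustered on 2000 variable genes, without complex IV and mitochondrial genes, with 30 principal components, 15 neighbours and Leiden clustering (leidenalg 0.10.2) at resolution 1. A cluster took the cell type with most support from at least 3 markers, each 2-fold above the median cluster after adding 10 CPM and with a UMI in 5% of cells or more. It stayed unnamed where another type had more markers among its 10 leading genes. A cluster also lost its name where it was not germ-like and shared at least 3 leading genes with a germ-like cluster. The same held where no leading gene was a marker of its type and it was shallow or shared 3 with another type's cluster. Leading genes could include the isoforms, such as COX8C. The clustering gave 23 clusters in cattle and 25 in pig.

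Raw counts were summed per animal and cell type (at least 20 cells). Genes with at least 200 UMIs over the sums were tested with edgeR 4.0.16 (TMM, quasi-likelihood) in R 4.3.3, with Benjamini-Hochberg adjustment at 0.05. The minimum of 200 was set after a test on simulated data, in which a lower one gave more false calls. Species differences were interaction contrasts. Types seen in fewer than 2 animals were not fitted, nor were the unnamed clusters. Germ-like cells of pig and myoid-like cells of both species had chosen the members, so members were not tested there, and COX4I2 and pig COX8C, whose choosing cells are in every other reference, were read in no contrast. The p-values rest on the spread between animals within cell types, estimated over all types together, and do not use the pairing of sums from the same animal.

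Sums of the same animal come from 1 library and are paired. Their deviations from the cell type means had a median correlation of 0.237 in cattle and 0.218 in pig, against -0.152 and -0.0901 between animals. Those means are over the same animals, so the negative values between animals largely follow from the values within animals. The animal as a block was an alternative, beside DESeq2 1.42.0, library size alone, other filters, doublets kept, another naming rule, another reference and leaving out each animal. The members, lists, naming rule and tests were chosen with earlier results of these data known. All members were described. Other genes were named where called, at most 8 in a contrast by smallest adjusted p, and the most alike genes by correlation. One of the genes most alike in pig is not reported here.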

Additional observations from a re-analysis of the deposited data

Results flagged for a closer look

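The contrasts of 2 isoforms differed between cattle and pig by an interaction test, over symbols listed in both gene tables. COX7A1 in Sertoli-like cells differed by -1.66 on the log2 scale, cattle effect minus pig effect (SE 0.53, edgeR adjusted p = 0.030). Its levels in these cells were 71.3, 120 and 123 CPM in cattle and 261, 117 and 109 CPM in pig, so that the 2 deeper pigs lay within the cattle range. Pig 1, the highest, is the shallow library in whose Sertoli-like cells the Leydig cell list stood at 1310 CPM, against 236 and 457 CPM in pig 2 and 3, and the part of that RNA was not tested. The test compares contrasts, and COX7A1 levels in the reference types differed too. Its means in cattle and pig were 300 and 63.3 CPM in macrophage-like and 290 and 184 CPM in myoid-like cells. Plasmacytoid-like, endothelial-like and lymphocyte-like means were also higher in cattle, and germ-like and Leydig-like means were higher in pig. The part of the reference was not tested. The difference was called in 5 of 12 alternatives, at -1.27 with cells of at least 500 UMIs, and was lost without the second or the third animals (edgeR adjusted p = 0.28 and 0.45).

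COX6B2 in Sertoli-like cells differed by 3.30 (SE 0.88, edgeR adjusted p = 0.0085), a size that rests in part on its 0 counts in cattle plasmacytoid-like cells. Without those cells it was 2.47 (edgeR adjusted p = 0.016). COX6B2 in Leydig-like cells differed by 3.16 (SE 1.003, edgeR adjusted p = 0.048). Its levels there were 19.2, 18.6 and 23.1 CPM in cattle and 13.9, 3.75 and 10.3 CPM in pig, those of pig from 16 UMIs in all. The test compares the contrasts of the species and not these levels. The difference was called in 5 of 12 alternatives. In cattle empty droplets COX6B2 stood at 23.6, 17.7 and 20.5 CPM, near its cattle levels in both cell types. Pig has no such value, and the part of this RNA in either difference was not tested. Without the plasmacytoid-like sums the Leydig-like difference was 2.08 and not called (edgeR adjusted p = 0.14). Leaving out 1 animal of each species gave 1.32 to 3.84 and no call, lowest without the third animals, where the effect in pig turned from -0.82 to 1.55, itself not called.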

How the results depend on the processing

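The animals pair the sums of a species. With the animal as a replicate block, 7 members were called in cattle Sertoli-like cells in place of 4. Of all genes, 4768 were called there in place of 3488. In cattle myoid-like cells 4022 genes were called in place of 2442. The genes that differed between the species went from 1217 to 1997 in Sertoli-like and from 605 to 1095 in Leydig-like cells, and no other count of the comparisons moved by more than 1.5 times. Counts of members here include COX4I2 and COX8C, whose choosing cells are in the reference, so their calls are not read as tests. The 4 members of cattle and the 2 of pig Sertoli-like cells include COX4I2. In pig Sertoli-like cells 1 member was called in place of 2 with DESeq2, with cells of at least 500 UMIs, with library size alone and without the plasmacytoid-like sums. For the Sertoli-like difference between species it was 1 in place of 2 with at least 10 UMIs over the sums, with cells of at least 500 UMIs and with markers set against all other cells. For the Leydig-like difference 0 were called in place of 1 with DESeq2, with doublets kept, with library size alone and without the plasmacytoid-like sums. In pig myoid-like cells 417 genes were called in place of 1604 against the sum of all other cells. The COX4I2 share in cattle myoid-like cells was 4.80% in place of 11.4% with markers set against all other cells, and COX4I2 in cattle Leydig-like cells turned from 0.00 to -2.27 against the sum of all other cells. Where no cause is named it was not tested.

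Leaving out 1 animal gave 2 to 5 members in cattle Sertoli-like cells, 1 to 2 in pig Sertoli-like cells, 0 to 1 for the Sertoli-like and 0 for the Leydig-like difference. It gave 3206 to 4977 genes in pig germ-like cells, where 5679 were called with all animals. In cattle myoid-like cells it gave 833 to 3200, where 2442 were called with all animals, and the 3200 came without cattle 1. In pig myoid-like cells it gave 463 to 1399, where 1604 were called with all animals. Each of these counts was lowest without the third animal, and the cause was not tested. The COX8C level in pig germ-like cells stayed between 1169 and 1293 CPM. Over all alternatives, of the values for single members 595 kept their side of the threshold, 43 lost a call and 25 gained one. A further 1 changed direction with a call on at least 1 side. Changes of direction between values that were not called are among the 595. COX4I2 and COX8C are included in these counts. Of the alternatives, the filter of 10 UMIs and the fit without plasmacytoid-like sums, were chosen after seeing the data. The planned share of COX8C in COX8A and COX8C could not be formed, and the species difference has no value against the sum of other cells. Depth limits the first library of each species and the sums of few cells most.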
